A study of Nematostella vectensis with 15 samples.

Results

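The genes described here were those of *Nematostella vectensis* whose transcript level in the mesentery was high in polyps kept at 15 °C and lower, at much the same level, in polyps kept at 20 and 25 °C. They were chosen by a rule on the deposited counts, which selected 152 of the 27527 gene models counted. For each library the counts of its 2 columns were summed and scaled to CPM, counts per 1000000 counts of the library, and the level of a gene was log2(CPM + 1). A gene was selected if its mean over the 15 libraries was at least 5 and under 1000 CPM, and if its spread, the square root of the mean variance within a temperature, was under 0.6. Its mean level also had to be lower at 20 than at 15 °C by 0.8 or more, and its means at 20 and 25 °C had to lie within 0.4 of each other. The limits on level and spread alone left 12280 genes, called below the genes within limits. The temperature difference itself was therefore used to choose the members, so its size and the calls of the model fit are given as a description and support nothing.

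*Nematostella*, the starlet sea anemone, is a burrowing estuarine animal that meets wide daily and seasonal swings of temperature. Its mesenteries are folded sheets that hang into the gut cavity and carry the gonads, the retractor muscles, and glandular and stinging cells of the digestive filaments. A transcript level in such a tissue reflects both how much of each cell type the sample holds and how much of the transcript each cell carries, and in bulk RNA fewer cells of a type and less RNA per cell cannot be told apart. The gene models carry no names, and 0 of the 27527 identifiers matched the RefSeq gene table, so the roles of the members, pathway lists, and markers of the mesentery and its cell types were not analysed here.

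The samples were adult polyps, F1 offspring of the cross CH2XCH6, described as acclimated females and all kept at a salinity of 16‰. Tissue was the mesenteric portion of the body, and libraries were stranded and made from polyadenylated RNA. At each of 15, 20, and 25 °C there were 5 libraries, numbered as replicates 1 to 5. Any culture vessel or processing date common to the polyps of 1 temperature is not given in the labels, and its part in a difference cannot be told apart from that of temperature. Where nothing says that replicates came from separate animals, the spread between them may be technical in part. Summed counts per library ran from 3526175 to 9619520 at 15 °C (median 7727786), from 8931333 to 17882346 at 20 °C (median 14234219), and from 8510055 to 22160961 at 25 °C (median 11095025). The 15 °C libraries thus held the lowest total, that of replicate 3, and the lowest median. A count of 0 allows up to 3 counts, which is 0.135 to 0.851 CPM over the libraries, from counting error only.

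Few genes had this shape. Of the genes within limits, 228 met the limit on 20 minus 15 °C and 11302 met that on 25 minus 20 °C, and 152 met both. The mirror shape, higher at 20 than at 15 °C by 0.8 or more and flat above, was met by 368 genes. Both counts depend on the scaling. For 20 minus 15 °C the genes within limits had a median of 0.08 with library totals and 0.01 with TMM. With TMM and with DESeq2 scaling 191 genes met the rule. The mirror count was not repeated under these, so nothing is read from 152 against 368. Of the genes that met the first limit only, 34 were lower at 25 than at 20 °C by 0.4 or more and 42 were higher by as much. A spread of 0.6 or more left out 20 further genes with the shape, a mean under 5 CPM left out 77, and a mean of 1000 CPM or more left out 0.

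**Figure D1:**
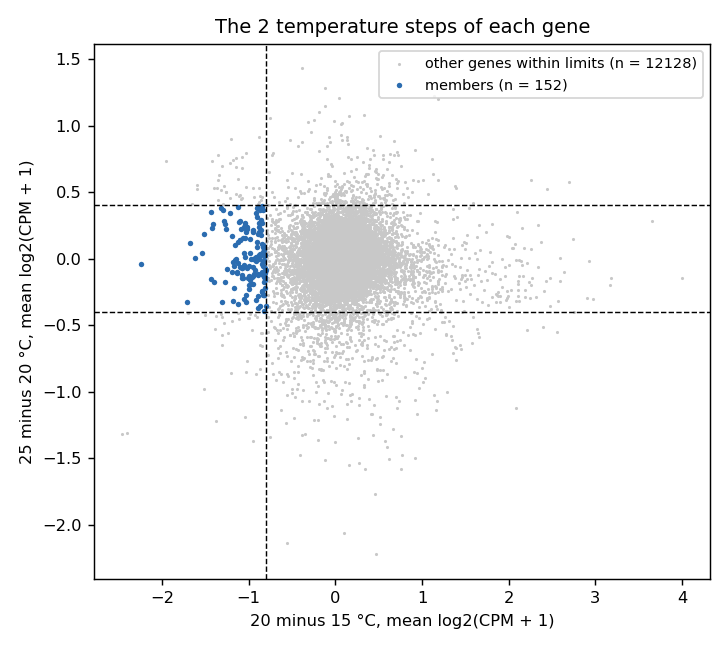
Each gray point is 1 of the 12128 other genes within limits and each blue point 1 of the 152 members, placed by the difference in mean log2(CPM + 1) between 20 and 15 °C (horizontal axis) and between 25 and 20 °C (vertical axis), with the limits of -0.8 and ±0.4 as broken lines. Most members lie close to the right-hand limit, and TU26610, at -2.24, lies farthest to the left of them.

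The edges of the rule were crowded. Just inside the 20 minus 15 °C limit lay NEMVEDRAFT_v1g204314 (-0.80), TU48304 (-0.80), and NEMVEDRAFT_v1g239365 (-0.81), and just outside lay NEMVEDRAFT_v1g228964 (-0.80), TU65567 (-0.79), and NEMVEDRAFT_v1g246436 (-0.79). For 25 minus 20 °C, NEMVEDRAFT_v1g149526 (0.40) and NEMVEDRAFT_v1g204678 (-0.40) were the last inside, and NEMVEDRAFT_v1g70058 (-0.40) and NEMVEDRAFT_v1g188880 (-0.41) the first outside. NEMVEDRAFT_v1g188880 had a difference of -1.70 between 20 and 15 °C, larger than that of all but 2 members, and was left out by this margin. Members near the limits thus differed little from genes just beyond them.

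Over the members, the median level was 4.96 at 15 °C, 3.90 at 20 °C, and 3.96 at 25 °C on the log2(CPM + 1) scale, beside 4.31, 4.40, and 4.40 for the genes within limits. Taking the 15 °C mean minus the average of the 20 and 25 °C means, the cold excess had a median of 0.96 and ran from 0.65 to 2.26, against a median of -0.09 for the genes within limits. As a fold on this scale the median was 1.95, with a lowest value of 1.57 and a highest of 4.78, and 64 members reached 2-fold while 88 did not. Between 20 and 25 °C the members had no common direction, since 76 were higher and 76 lower at 25 °C. Their spread within a temperature had a median of 0.33, against 0.21 for the genes within limits, and as the rule used it this is a description only. They were neither rare nor abundant as a group, with a median of 19.4 CPM against 19.9 CPM, and made up 1.25% of the genes within limits between 5 and 20 CPM (77 members), 1.14% of those between 20 and 100 CPM (56 members), and 1.58% of those above (19 members).

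**Figure D2:**
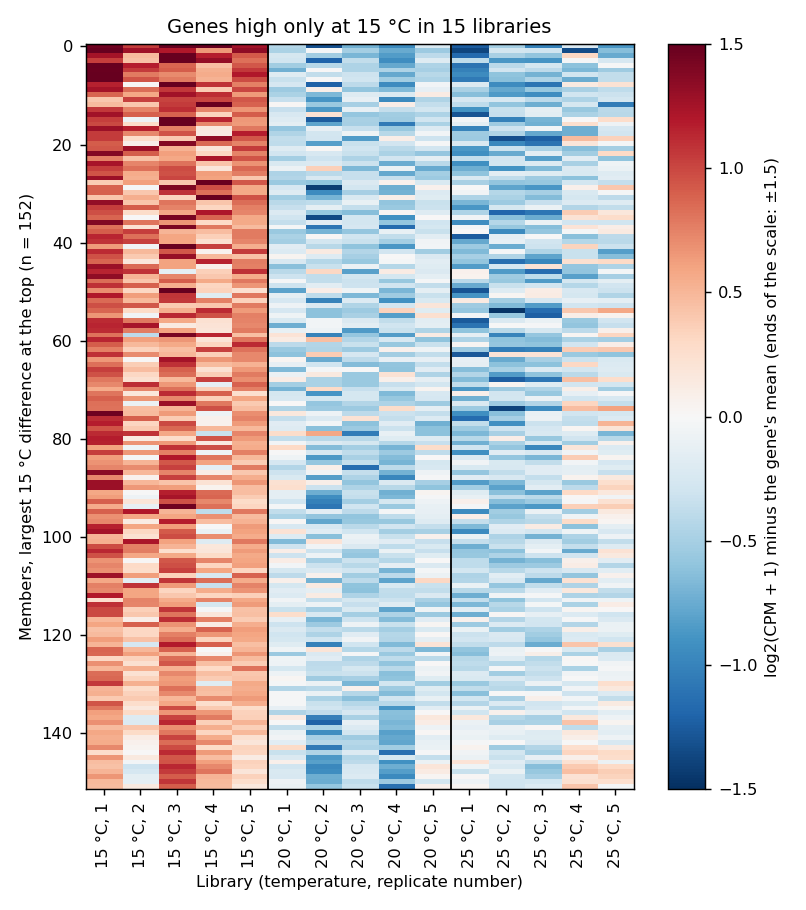
Rows are the 152 members, ordered from the largest cold excess at the top, and columns are the 15 libraries by temperature and replicate number. Color gives log2(CPM + 1) minus the mean of the gene over the 15 libraries, with the scale ending at ±1.5. The 5 columns of 15 °C are red in most rows, and those of replicates 2 and 4 are paler than those of replicates 1 and 3.

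All members together took 1.35% ± 0.194 of the counts of a library at 15 °C (SD, n = 5, from 1.05% to 1.52%). They took 0.641% ± 0.0733 at 20 °C (from 0.535% to 0.734%) and 0.662% ± 0.140 at 25 °C (from 0.531% to 0.810%). The lowest 15 °C library lay above the highest library of the other temperatures. The 6 most abundant members held 38.2% of the members' counts, and without them the share still ran from 0.654% to 0.959% at 15 °C, against 0.350% to 0.448% at 20 °C and 0.351% to 0.502% at 25 °C.

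In 84 members every 15 °C library lay above all 10 others. Among the genes within limits this held for 254, or 2.07%, and since the rule chose on these libraries nothing is read from the members' share. The 15 °C libraries lay above all 20 °C libraries in 106 members and above all 25 °C libraries in 93. The share of the genes within limits was not counted for either temperature alone, and nothing is read from these counts. The 68 members other than those 84 overlapped with at least 1 warmer library. The overlap came mostly from a few libraries. Replicate 2 at 15 °C fell below a warmer library in 40 members and replicate 4 in 29, against 1 for replicate 1, 5 for replicate 3, and 6 for replicate 5. On the warm side, 25 °C replicates 4 and 5 rose above the lowest 15 °C library in 39 and 40 members, and 20 °C replicates 1 and 5 in 27 and 20, while the other warm libraries did so in 5 to 14.

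In the edgeR fit over all 15 libraries, which tested 17818 genes, 151 of the 152 members had a Benjamini-Hochberg adjusted p under 0.05 and were lower at 20 than at 15 °C, where 9.11% of all tested genes were called in this direction. Between 25 and 15 °C, 144 members were called lower at 25 °C, beside 16.7% of all tested genes. Between 25 and 20 °C, 0 members were called by edgeR, beside 3.68% of all tested genes in either direction, with 9 members at an unadjusted p under 0.05, and DESeq2 also called 0. The rule used all 3 contrasts and so fixed most of these outcomes in advance, and nothing is read from the counts.

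Whether the pattern held in libraries that had no part in the choice was read by applying the rule to 12 libraries and looking at the 3 left out, those of 1 replicate number, in 5 rounds. The rounds chose 105 to 188 genes, of which 93 to 139 were also among the 152 members. In the libraries kept out, the median cold excess of the chosen genes was 1.15 for replicate 1, 0.79 for replicate 2, 1.07 for replicate 3, 0.66 for replicate 4, and 0.74 for replicate 5. The genes within limits had medians of -0.0014, -0.03, -0.15, -0.21, and -0.06 in the same libraries. The 15 °C library lay above both warmer libraries in 96.8%, 97.2%, 97.1%, 86.2%, and 94.4% of the chosen genes, against 37.2%, 35.6%, 27.2%, 16.4%, and 31.6% of the genes within limits. The median was smaller than that in the choosing libraries for replicates 2, 4, and 5 and larger for replicates 1 and 3, the 15 °C libraries in which the members stood highest.

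The member with the largest cold excess was TU26610, an assembled model of 5 exons on the minus strand of scaffold 214 (204550 to 224614). It had 16.7, 12.3, 26.1, 19.4, and 14.4 CPM in the 15 °C libraries, against 3.75, 1.57, 2.91, 2.32, and 4.47 CPM at 20 °C and 1.71, 3.53, 2.17, 4.51, and 2.51 CPM at 25 °C. The lowest 15 °C library thus had more than any of the 10 others, and the fold of 4.78 stood well clear of the next member. TU26610 shares exon positions with another model on its strand, and how the counting split their reads was not tested. TU70814 (scaffold 725, 4 exons) followed with a fold of 3.65. Its levels were 37.6, 26.6, 25.2, 16.9, and 28.0 CPM at 15 °C, 7.21, 10.2, 7.02, 5.76, and 6.83 CPM at 20 °C, and 3.38, 8.46, 8.27, 3.52, and 6.36 CPM at 25 °C. Here too every 15 °C library lay above all warmer ones. Replicate 4 was low at 15 °C, as it was in several of the genes that follow.

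NEMVEDRAFT_v1g243275, a single-exon model on scaffold 83, had 48.5, 28.0, 61.3, 46.4, and 38.6 CPM at 15 °C, 16.4, 13.5, 11.9, 10.7, and 14.9 CPM at 20 °C, and 8.30, 13.9, 12.8, 25.0, and 11.4 CPM at 25 °C. Its 25 °C replicate 4 nearly reached 15 °C replicate 2. NEMVEDRAFT_v1g247512 (scaffold 311, 8 exons) was a more abundant gene with a fold of 3.06, against 3.07 for NEMVEDRAFT_v1g243275, and had 140.3, 92.2, 232, 170.1, and 121 CPM at 15 °C, 55.0, 28.9, 52.5, 35.1, and 59.1 CPM at 20 °C, and 51.8, 36.7, 36.4, 66.8, and 57.5 CPM at 25 °C. In both, replicate 3 was the highest and replicate 2 the lowest of the 15 °C libraries, and all lay above the warmer ones.

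A second kind of profile had replicate 1 highest and replicate 4 lowest at 15 °C. TU78809 (scaffold 92, 8 exons, fold 2.85) had 64.9, 47.8, 38.6, 28.6, and 40.1 CPM at 15 °C, 14.1, 15.2, 14.6, 11.7, and 14.7 CPM at 20 °C, and 9.02, 15.3, 17.0, 13.2, and 20.5 CPM at 25 °C. TU72225 (scaffold 76, 22 exons, fold 2.85) had 46.8, 34.4, 31.2, 23.7, and 34.7 CPM at 15 °C, 9.39, 16.1, 11.4, 11.5, and 11.1 CPM at 20 °C, and 7.49, 13.0, 11.99, 9.73, and 10.8 CPM at 25 °C. NEMVEDRAFT_v1g97030 (scaffold 45, 11 exons, fold 2.76) had 49.0, 29.2, 25.8, 21.4, and 29.9 CPM at 15 °C, 11.4, 14.7, 11.7, 9.91, and 10.3 CPM at 20 °C, and 6.54, 9.17, 10.3, 8.38, and 11.1 CPM at 25 °C. In each of these 3 genes the lowest 15 °C library stood above the highest warm one, and the lowest library of all was 25 °C replicate 1. NEMVEDRAFT_v1g80906 (scaffold 3, 10 exons) and NEMVEDRAFT_v1g164975 (scaffold 55, 13 exons) had the same high and low libraries at 15 °C, with 12.2 ± 4.67 and 38.2 ± 8.15 CPM at 15 °C, 3.82 ± 0.681 and 15.3 ± 3.88 CPM at 20 °C, and 3.29 ± 0.753 and 13.2 ± 1.39 CPM at 25 °C (SD, n = 5 each).

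TU63047 (scaffold 57, 15 exons, fold 2.68) had 151, 67.9, 225, 144, and 115 CPM at 15 °C, 56.3, 28.4, 51.2, 34.6, and 65.2 CPM at 20 °C, and 57.9, 34.4, 31.0, 74.3, and 78.2 CPM at 25 °C. It was the only one of the 12 members with the largest cold excess in which a warmer library rose above a 15 °C one. Its 15 °C replicate 2 fell below 25 °C replicates 4 and 5. NEMVEDRAFT_v1g81436, a single-exon model of 177 bp on scaffold 4, had 22.0, 34.2, 34.0, 33.6, and 32.0 CPM at 15 °C, 12.6, 8.40, 14.9, 7.94, and 11.7 CPM at 20 °C, and 13.6, 13.6, 12.2, 11.5, and 13.3 CPM at 25 °C. Its 15 °C libraries agreed closely apart from replicate 1, which was lowest here and highest in 57 of the 152 members.

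**Figure D3:**
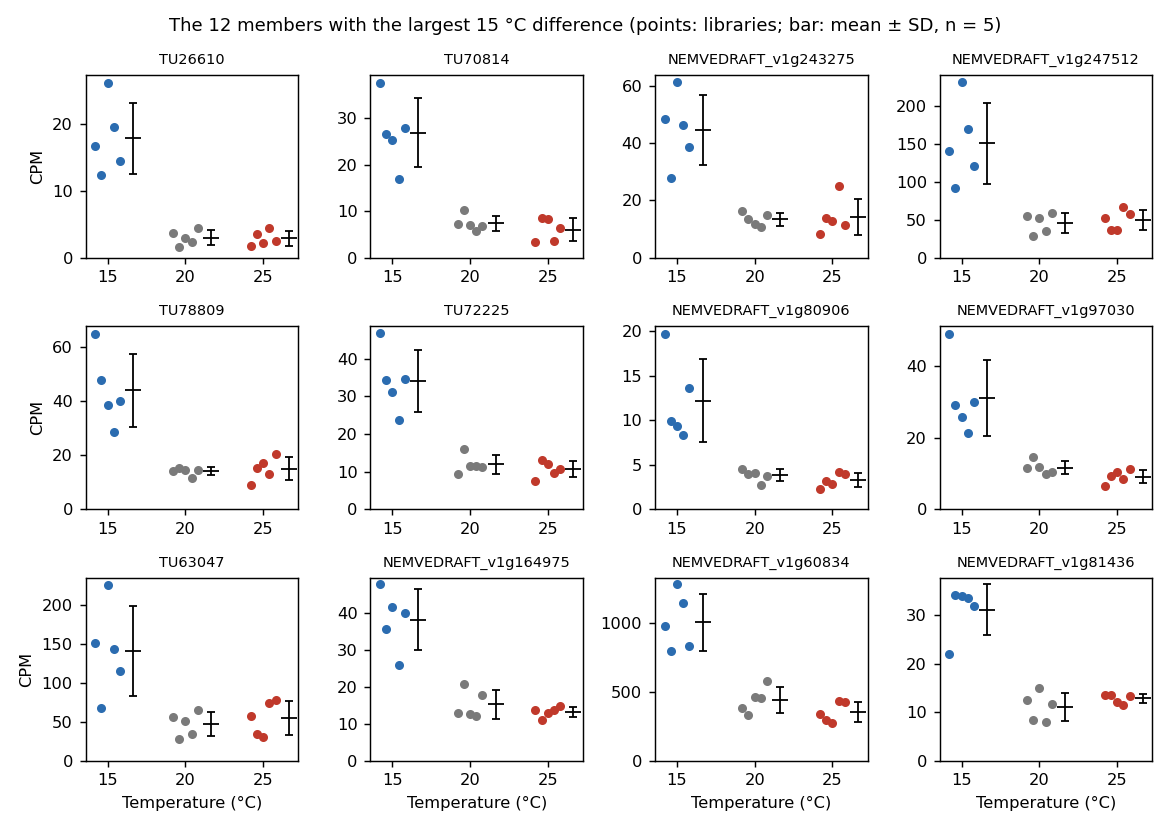
CPM of the 12 members with the largest cold excess (vertical axes, each starting at 0) by temperature, with 1 point for each of 5 libraries in the order of replicate numbers and a bar for the mean ± SD beside them. In 11 of the 12 panels every 15 °C point lies above all points of 20 and 25 °C, and TU63047 is the exception. Among the genes within limits this held for 2.07%. The rule and the ranking used these same libraries, so nothing is read from the count.

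The most abundant member was NEMVEDRAFT_v1g70014 (scaffold 87, 577374 to 588317, minus strand, 10 exons), at a mean of 987 CPM. It had 1162, 1363, 1175, 2499, and 1702 CPM at 15 °C, 605, 586, 765, 929, and 762 CPM at 20 °C, and 636, 591, 601, 734, and 693 CPM at 25 °C. Replicate 4 carried much of its 15 °C mean, but each of the 5 libraries lay above all warmer ones. NEMVEDRAFT_v1g60834 (scaffold 3196, 5658 to 10800, minus strand, 9 exons) was the only gene among both the 6 most abundant members and the 12 with the largest cold excess. It had 972, 792, 1275, 1141, and 828 CPM at 15 °C, 379.6, 333, 465, 452, and 579 CPM at 20 °C, and 341, 294, 277, 431, and 425 CPM at 25 °C. Its fold was 2.53, and all 15 °C libraries lay above the warmer ones.

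In the other 4 of the 6 most abundant members, 15 °C libraries overlapped with warmer ones. NEMVEDRAFT_v1g243058 (scaffold 78, 5 exons) had 752, 463, 1148, 894, and 637 CPM at 15 °C, 441, 255, 382, 304, and 479.8 CPM at 20 °C, and 449.9, 379, 368, 492, and 469.6 CPM at 25 °C. NEMVEDRAFT_v1g247592 (scaffold 319, 17 exons) had 586, 321, 859, 586, and 476 CPM at 15 °C, 260.3, 124, 263, 170.4, and 322 CPM at 20 °C, and 308, 207, 191, 373, and 388 CPM at 25 °C. In both, 15 °C replicate 2 fell within the warm range and the other 4 libraries lay above it. The remaining 2, TU5568 and TU44044, are described with their neighbours below. Per base of exon the order was another, and the member with the highest mean, at 1277 RPKM (CPM per kilobase of exon), was the 183 bp model NEMVEDRAFT_v1g113209.

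At 15 °C the members departed from their means together, and in more than one direction. Their median deviation from the mean level at that temperature was 0.18 in replicate 1, -0.21 in replicate 2, 0.19 in replicate 3, -0.14 in replicate 4, and -0.02 in replicate 5. The genes within limits deviated by 0.14, 0.04, -0.10, -0.11, and 0.05 in the same libraries. Replicates 2 and 3 thus moved the other way from the bulk of genes. Replicate 3 also had the lowest total count. With every library thinned to that total, which leaves replicate 3 itself unchanged, the members deviated by 0.16 in it. The part of depth in this deviation was not tested. Over all pairs of members the deviations had a mean correlation of 0.21 across the 15 libraries, beside 0.13 for pairs of genes within limits, and both share libraries and depth. The first component of the deviations held 43.3% of their variance in the members and 29.1% in the genes within limits.

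Most members had their highest 15 °C level in 1 of 2 libraries, replicate 3 (68 members) or replicate 1 (57 members). Replicate 4 was highest in 15, replicate 2 in 9, and replicate 5 in 3. Of the genes within limits, 11.2% were highest in replicate 3 and 37.9% in replicate 1. The rule used these 15 °C levels, and a gene raised in 1 of the libraries meets its limits more easily, so these shares and the orders that follow are a description only. Several orders of the 5 libraries repeated among members. The order 3, 4, 1, 5, 2 from high to low was that of 26 members (17.1%, against 1.79% of the genes within limits), 3, 1, 4, 5, 2 that of 15 members (9.87%, against 1.34%), and 1, 2, 5, 3, 4 that of another 15 (9.87%, against 5.73%).

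These 2 sets, formed from the 15 °C libraries after those levels had been seen, also differed in the 20 and 25 °C libraries. Those libraries had no part in the split, but the rule that chose the members used them. There the deviations of the 68 members highest in replicate 3 had a mean correlation of 0.48 with each other, and those of the 57 highest in replicate 1 had 0.32. Between the sets the mean was -0.01, over all members it was 0.17, and over the genes within limits it was 0.10, in the same 10 libraries. The genes within limits were not split by their highest 15 °C library, so these values are a description only. At 20 °C the first set deviated by 0.26 and 0.29 in replicates 1 and 5 and by -0.33 and -0.27 in replicates 2 and 4, whereas the second deviated by 0.06, -0.04, 0.17, and -0.12 in the same libraries. At 25 °C the first set deviated by 0.03, -0.21, -0.25, 0.27, and 0.17 in replicates 1 to 5 and the second by -0.36, -0.02, 0.15, -0.02, and 0.16, so that the sets were alike in replicate 5. The members of the 2 sets thus had the same temperature profile by the rule and different profiles between the libraries of a temperature.

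**Figure D4:**
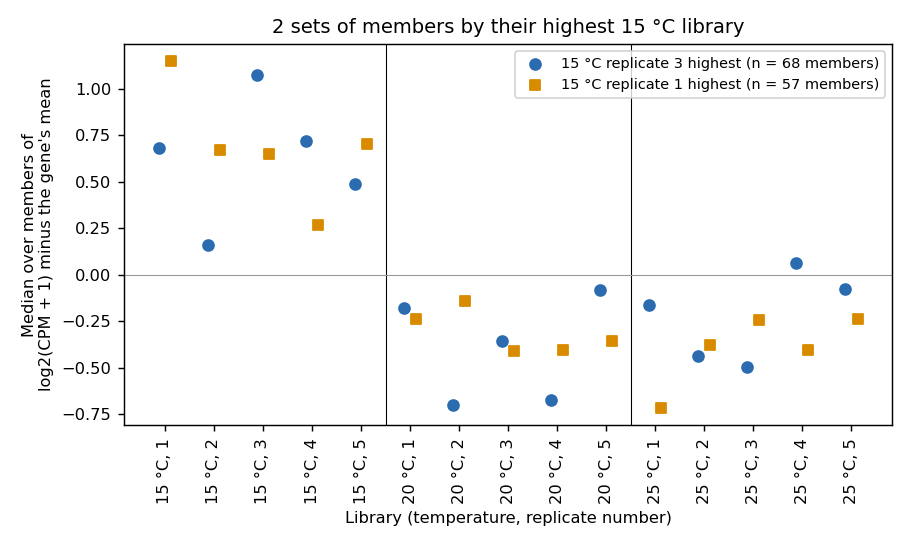
The vertical axis gives the median over members of log2(CPM + 1) minus the mean of the gene over the 15 libraries, for each library by temperature and replicate number. Circles are the 68 members highest in 15 °C replicate 3 and squares the 57 highest in 15 °C replicate 1. Both sets lie above 0 in every 15 °C library, and in the warmer libraries circles lie below squares in replicates 2 and 4 at 20 °C and 2 and 3 at 25 °C, and above them in the other 6.

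The 2 sets differed in further respects. Of the members highest in replicate 3, 52 (76.5%) were higher at 25 than at 20 °C, and of those highest in replicate 1, 42 (73.7%) were lower. The median difference between 25 and 20 °C was 0.20 in the first set and -0.07 in the second, inside the limit of 0.4 that the rule set. Models of the first set were shorter, with a median of 1518 bp of exon and 5 exons against 2472 bp and 9 exons. The genes within limits had medians of 1579.5 bp and 7 exons. Of the first set 22 of 68 were TACO models, against 30 of 57. Within limits TACO models had a median of 3048 bp of exon and JGI models 1187 bp. The sets were not compared within a model type. Their cold excess was alike, with medians of 0.91 and 0.98. In 33 of the 68 and 35 of the 57, all 15 °C libraries lay above the warmer ones, beside 2.07% of the genes within limits. The rule chose on these libraries, so nothing is read from these counts.

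Members lay on 111 scaffolds, 85 of which held 1 member and 5 of which held 3 or more. Even so, 17 members (11.2%) had another member as a directly neighbouring gene model, whereas 149 of the 12128 other genes within limits (1.23%) lay next to a member. With overlapping pairs left out, which was decided after seeing the data, these were 14 members (9.21%) and 1.15% of the others. Position had no part in the rule, but close neighbours may share sequence or reads, which was not tested. The 17 members formed 8 runs, 2 of them on scaffold 116.

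On scaffold 116, 6 of the 68 gene models were members, and all 6 lay within 35889 bp (584786 to 620674). This stretch held 8 models, all on the minus strand. From the lowest coordinate these were NEMVEDRAFT_v1g113139, TU5577, TU5581, NEMVEDRAFT_v1g113108, TU5568, NEMVEDRAFT_v1g113166, NEMVEDRAFT_v1g113105, and NEMVEDRAFT_v1g113209. TU5581 and NEMVEDRAFT_v1g113105 were not members. NEMVEDRAFT_v1g113105 missed 2 limits, with a spread of 0.68 and a difference of -0.41 between 25 and 20 °C. All 8 models were higher at 15 °C than at the mean of 20 and 25 °C, by 0.68 to 1.34. The rule chose 6 of them for this difference, so nothing is read from the count. The 2 that were not members had 0.68 (TU5581) and 1.34 (NEMVEDRAFT_v1g113105). Of the 8, 5 were single-exon JGI models of the same length, 183 bp, and 3 of those lay within the introns of TU5568 without sharing an exon with it.

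Levels along the stretch varied together between libraries. TU5568, its most abundant model, had 859, 673, 696, 959, and 677 CPM at 15 °C, 358, 337, 336, 595, and 445 CPM at 20 °C, and 335, 186, 254, 673, and 747 CPM at 25 °C. NEMVEDRAFT_v1g113209 had 381, 255, 302, 454, and 324 CPM at 15 °C, 174, 135, 142, 264, and 184 CPM at 20 °C, and 138, 74.5, 93.2, 275, and 311 CPM at 25 °C. Replicate 4 was the highest library at 15 and 20 °C in both, and at 25 °C replicates 4 and 5 stood far above the other 3 libraries, near or above the lowest 15 °C library. Summed over the 8 models, CPM was 1952, 1423, 1560.3, 2272, and 1669 at 15 °C, 879.9, 759.8, 739, 1287, and 976 at 20 °C, and 734, 417, 525, 1447, and 1559 at 25 °C. The 15 and 20 °C libraries did not overlap in this sum, whereas 2 of the 5 libraries at 25 °C lay above the lowest at 15 °C. Most of the sum came from members, which were chosen on these libraries, so this is a description only. Deviations of the 6 members from their temperature means correlated with each other at 0.92 to 0.98 across the 15 libraries, with a mean of 0.95.

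**Figure D5:**
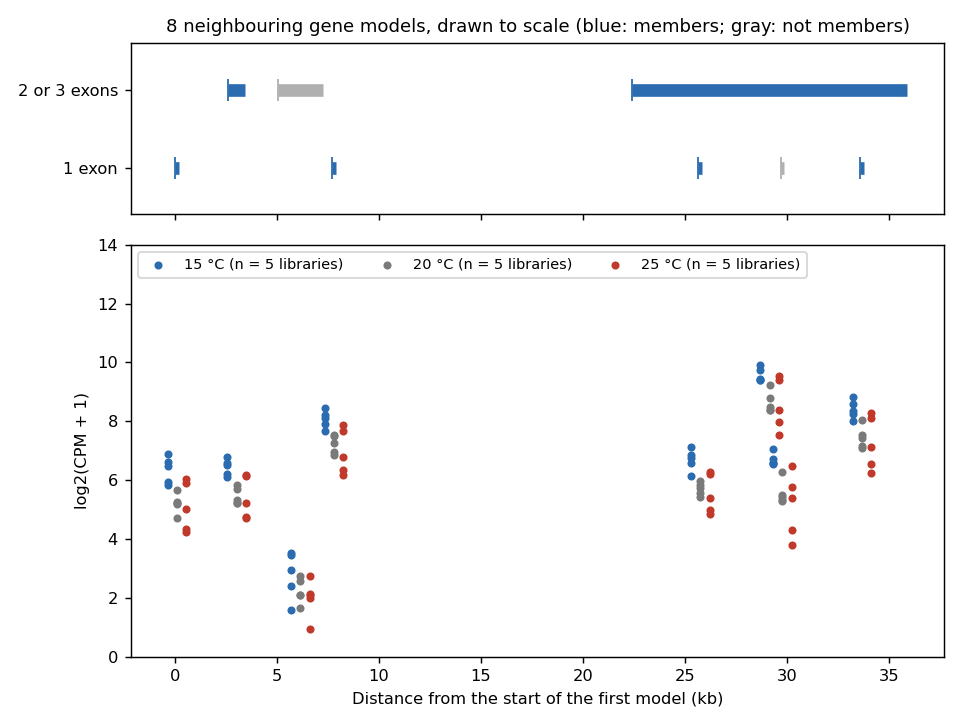
The upper panel draws the 8 models of the stretch on scaffold 116 to scale by distance from the start of the first (kb), with members in blue and the 2 others in gray. The lower panel gives log2(CPM + 1) in each library at the middle of each model, with 15, 20, and 25 °C offset side by side, and near 29 kb the higher points are those of TU5568 and the lower ones those of NEMVEDRAFT_v1g113105. At every model the 15 °C points lie highest on average, which the rule fixed for the members. Except at TU5581 the 25 °C points spread most.

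A single member elsewhere followed the stretch as closely. TU44044 (scaffold 3391, 448 to 5579, minus strand) had 619.7, 382, 471, 734, and 526 CPM at 15 °C, 273, 212, 202, 321, and 276 CPM at 20 °C, and 229, 138, 148, 412, and 354 CPM at 25 °C, with a correlation of 0.98 to the mean deviation of the 6 members. Correlations of at least 0.7 were found for 3 of the 146 members outside the stretch (2.05%), the others being TU47347 (0.74) and TU7544 (0.71), and for 142 of the 12274 genes within limits outside it (1.16%). TU44044 had the same build as 2 of the 3 assembled models of the stretch. TU5577, TU5568, and TU44044 each had 3 exons and 258 coding bases. Of the 8 TACO models with that build 5 reached a mean of 5 CPM, these 3 and TU19139 (cold excess 0.21) and TU43155 (-0.44). The rule chose these 3 for their cold difference, so nothing is read from the contrast.

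Models of the same length elsewhere are listed as a description only. The rule chose 4 of those on scaffold 116 for their cold difference, so nothing is read from the contrast. The annotation holds 43 single-exon JGI models of 183 bp, of which 29 had counts and 9 a mean of at least 5 CPM. The 6 of these on scaffold 116 included NEMVEDRAFT_v1g113065, just before the stretch, with a cold excess of 1.51 and a spread of 0.76 that left it out. The other 3 were NEMVEDRAFT_v1g85517, NEMVEDRAFT_v1g114346, and NEMVEDRAFT_v1g109079, with cold excesses of -0.12, 0.16, and -0.13. Whether the models of equal length are copies that shared reads was not tested, since no genome sequence was used here, and their separate levels are uncertain for that reason.

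Neighbouring members on other scaffolds varied in distance and in likeness. TU75663 and TU75691 lie 11261 bp apart on the plus strand of scaffold 836 and had deviations that correlated at 0.89. TU75663 had 47.7, 33.7, 55.0, 45.2, and 37.7 CPM at 15 °C, 21.8, 12.5, 17.6, 15.0, and 21.6 CPM at 20 °C, and 24.1, 18.4, 17.5, 21.3, and 24.5 CPM at 25 °C. TU75691 had 96.4, 44.2, 134, 104, and 74.0 CPM at 15 °C, 40.7, 19.0, 32.9, 31.9, and 37.6 CPM at 20 °C, and 45.4, 22.6, 28.4, 46.7, and 56.3 CPM at 25 °C. Replicate 3 was highest and replicate 2 lowest at 15 °C in both. The 15 °C libraries of TU75663 lay above all warmer ones, whereas those of TU75691, with a wider spread, overlapped with warmer ones.

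On scaffold 20, NEMVEDRAFT_v1g200164 (minus strand) and TU23955 (plus strand) lie 5970 bp apart and correlated at 0.92. NEMVEDRAFT_v1g200164 had 129, 55.1, 198, 162, and 100.3 CPM at 15 °C, 84.6, 36.1, 48.4, 40.5, and 79.7 CPM at 20 °C, and 66.2, 36.1, 48.4, 74.2, and 91.6 CPM at 25 °C. TU23955 had 335, 222, 503, 402, and 308 CPM at 15 °C, 201, 134, 177, 135, and 230.5 CPM at 20 °C, and 197, 144, 127, 274, and 249 CPM at 25 °C. Both overlapped through 15 °C replicate 2, and the spread of the first, 0.60, was the largest of all members. On scaffold 37, TU47347 and NEMVEDRAFT_v1g202723 share exon positions on the minus strand and correlated at 0.50, so their counts may not be separate. Their levels were 31.2 ± 1.92 and 19.0 ± 3.97 CPM at 15 °C, 14.7 ± 2.098 and 7.72 ± 2.25 CPM at 20 °C, and 18.1 ± 3.69 and 9.83 ± 1.72 CPM at 25 °C (SD, n = 5 each).

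Adjacent position did not always go with shared variation. NEMVEDRAFT_v1g183927 and NEMVEDRAFT_v1g99266 on scaffold 52 lie 26105 bp apart on opposite strands, and their deviations correlated at -0.22. They had 8.94 ± 1.62 and 78.5 ± 18.4 CPM at 15 °C, 4.55 ± 0.674 and 35.6 ± 2.41 CPM at 20 °C, and 4.76 ± 0.754 and 40.2 ± 9.38 CPM at 25 °C (SD, n = 5 each). The last 2 runs, NEMVEDRAFT_v1g243057 with NEMVEDRAFT_v1g243058 on scaffold 78 and NEMVEDRAFT_v1g223019 with NEMVEDRAFT_v1g147883 on scaffold 2178, correlated at 0.81 and 0.95.

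The gene models of the members were compared with those of the genes within limits. Of the members, 67 (44.1%) were TACO models, transcripts assembled from reads, and 85 were JGI models, where 34.7% of the genes within limits were TACO models. Median span from start to end was 5272 bp in the members and 6021 bp in the genes within limits, with 1830.5 and 1579.5 bp of exon. Exon length differed in direction by model type. It was 1368 and 1187 bp within JGI models, and 2524 and 3048 bp within TACO models. Single-exon models made up 26 members (17.1%) and 9.45% of the genes within limits. Within JGI models these shares were 21.2% and 12.3%, and within TACO models 11.9% and 4.06%. Overlap with another model on the same strand was found for 21 members (13.8%) and 7.48% of the genes within limits, and on the opposite strand for 15 (9.87%) and 10.6%. Exon positions shared with another model were found for 13 members (8.55%) and 5.54%, and in these the counts of the 2 models may not be separate. The 4 single-exon members of the stretch are among the 26.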

How the data were processed

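The authors deposited raw counts of fragments per gene, 2 columns for each of 15 libraries, and gene models that join JGI models with transcripts assembled by TACO. The submitters' processing notes name Trimmomatic 0.38, HISAT2 2.1.0, StringTie 2.0, and featureCounts, and the genome build is not given in the sources used here beyond scaffold numbers of the JGI models. The meaning of the 2 columns is not stated, and they were summed. The deposited length column equaled the summed exons for all 27527 models. Of these identifiers 0 matched the 38762 genes of the RefSeq table.

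Levels were log2(CPM + 1) with CPM by library total, computed with pandas 2.3.3, numpy 2.4.6, and scipy 1.17.1 under Python 3.11.15, and plots were made with matplotlib 3.10.9. Fits used R 4.3.3 with edgeR 4.0.16 (filterByExpr, TMM, and the robust quasi-likelihood F-test, all 15 libraries in 1 fit, Benjamini-Hochberg adjusted p under 0.05) and, as an alternative, DESeq2 1.42.0. Deviations were taken from the mean of a temperature. Procedures were tested on simulated data.

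The members, the rule, and the gene lists were chosen with earlier results of these data known. Named were the 12 members with the largest cold excess, the 6 with the highest mean CPM, the genes nearest the limits, and 6 runs of neighbouring members, and others were chosen after their values were seen. Members by product name were to be named as well, but no product was matched. Alternatives were the first (L1) or second (L2) column of each library alone, TMM or DESeq2 scaling, pseudocounts of 0.5 and 2 CPM, thinning to the lowest total, no filter, a replicate block, and each library left out.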

Additional observations from a re-analysis of the deposited data

Results flagged for a closer look

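Among the 15 °C libraries, replicate 1 of NEMVEDRAFT_v1g81436 stood apart at 22.0 CPM, where the other 4 had 32.0 to 34.2 CPM. On the log2(CPM + 1) scale its distance from the next library made up 0.848 of the whole range, above Dixon's critical value for 5 samples. It was the only such library among 96 groups tested, which were 29 named members and 3 measures of the libraries at each of the 3 temperatures, where chance gives about 4.8.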

How the results depend on the processing

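The number of members was 139 with the L1 columns alone, 150 with the L2 columns alone, 191 with TMM and 191 with DESeq2 scaling, 155 and 134 with pseudocounts of 0.5 and 2 CPM, and 155 after thinning. Of the 152 members, 124, 118, 149, 150, 144, 125, and 120 were kept under these settings in the same order. Leaving out 1 library gave 118 (without 15 °C replicate 1) to 188 genes (without 15 °C replicate 4), of which 111 to 143 were members, so which genes pass the limits depends on single libraries. The members kept were 111 to 143 without a 15 °C library, 116 to 127 without a 20 °C library, and 135 to 143 without a 25 °C library. With the members held fixed, the median cold excess stayed between 0.91 and 1.03 under every setting run. All 152 were lower at 20 and at 25 °C under library totals, TMM, and DESeq2 scaling. The rule fixes this direction under library totals, so both results are a description only. For 20 minus 15 °C the median of all genes within limits was 0.08 with library totals and 0.01 with TMM.

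Members called lower at 20 than at 15 °C ranged from 138 to 152 and those lower at 25 than at 15 °C from 135 to 150 with 1 library left out. Without the filter these were 140 and 137, and DESeq2 called 152 and 150. The share of all tested genes called is given for the main fit only, at 9.11% and 16.7%. The rule used these contrasts, so nothing is read from the counts or from their likeness between settings. In the 5 rounds of kept-out libraries the median cold excess ran from 0.656 to 1.15, with a median of 0.789, and the rounds without replicate 1 (1.15) and without replicate 3 (1.07) lay farthest from it. Within 2 gene models, 20 members had a neighbouring member, and on the same strand 15 did. The excess of TACO models in the members was 9.36 percentage points over the genes within limits and 15.0 over all genes with a count.

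Replicate numbers repeat across temperatures. A replicate block left 151, 146, and 0 members called, and nothing is read from these counts, since the rule used the contrasts. The 15 same-numbered pairs of libraries correlated at -0.159 to 0.414 (6 of them over 0.1), with a mean of 0.104. The other 60 pairs correlated at -0.436 to 0.430 (13 of them over 0.1), with a mean of -0.025. Whether equal numbers share an effect was not tested, and the main fit did not use them to pair the samples.

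Depth limits the lowest members most, since 77 of them had means under 20 CPM and the shallowest library, at 15 °C, held 3526175 counts. Because 15 °C also had the lowest median total, members found in thinned libraries were counted, and 120 of the 152 remained. What the members encode, and whether near-identical models shared reads, was not tested.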
